A study of Rattus norvegicus with 12 samples.

Results

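IFIT, Mx and other antiviral effector genes of the interferon response were followed in cultured rat astrocytes. The genes were Ifit1, Ifit2, Ifit3, Mx1, Mx2, Rsad2, Bst2, Cmpk2, Isg20 and Ifi44, chosen by name, each read from the array row that the platform annotation pairs with that gene alone. Of the 10 genes, 9 had such a row among the 18166 genes measured; Bst2, which tethers budding virus particles to the cell surface, is not analysed here.

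RNA was measured on 12 whole-transcript arrays, 3 in each of 4 groups of primary astrocytes from cerebral cortex of Sprague-Dawley rats 1 day old. Cells with control siRNA alone form the group siCon. Cells with control siRNA and interferon-γ (IFN-γ) form siCon_IFNg, and those with control siRNA, IFN-γ and a compound given only as GW form siCon_IFNg_GW. The last group, siSHP_IFNg_GW, received SHP siRNA with IFN-γ and GW. SHP is read here as small heterodimer partner, a nuclear receptor encoded by Nr0b2 that lacks a DNA-binding domain and represses other transcription factors. Treatment lasted 3 h, and per the labels the cultures had spent 2 days without serum to deplete microglia and meningeal cells. There is no group with SHP siRNA alone, with GW alone or with SHP siRNA and IFN-γ without GW, so the siRNA was compared only under IFN-γ with GW. Arrays carry title numbers 1, 2 and 3, and nothing in the labels says that these were separate cultures. The p-values therefore rest on array-to-array spread, and this may be purely technical.

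Antiviral effectors are the proteins through which interferons block virus replication. Type I interferons activate a transcription factor complex called ISGF3, which binds the interferon-stimulated response element (ISRE) in the promoters of these genes, whereas IFN-γ acts mainly through the gamma-activated site (GAS) and through the induced factor IRF1. Astrocytes respond to both kinds of interferon and express many of these genes during viral infection and inflammation of the brain.

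The proximal promoters of members are shown because they let the effectors that moved together be set beside Isg20, which was not called in the treatment comparisons. RefSeq promoter windows on assembly GRCr8 were found for 6 of the 9 genes (Ifit3, Mx1, Rsad2, Cmpk2, Isg20 and Ifi44). Each line gives the 150 bases before the annotated start on the gene's own strand, 5′ to 3′, and capitals mark a match to the ISRE core GAAANNGAAA on either strand. The lines show Rsad2 at chr6:48788121-48788270 (minus strand), Ifit3 at chr1:241527176-241527325 (plus strand), Mx1 at chr11:50294607-50294756 (minus strand) and Isg20 at chr1:142239909-142240058 (plus strand).
Rsad2: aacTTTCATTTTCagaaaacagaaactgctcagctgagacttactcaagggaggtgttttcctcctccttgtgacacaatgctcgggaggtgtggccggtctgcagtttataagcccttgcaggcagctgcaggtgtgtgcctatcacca
Ifit3: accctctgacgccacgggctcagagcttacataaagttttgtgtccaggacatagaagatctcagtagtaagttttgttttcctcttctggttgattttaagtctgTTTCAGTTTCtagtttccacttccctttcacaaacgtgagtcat
Mx1: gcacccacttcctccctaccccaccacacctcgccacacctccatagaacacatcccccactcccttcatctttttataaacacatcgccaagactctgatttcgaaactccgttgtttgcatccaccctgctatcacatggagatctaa
Isg20: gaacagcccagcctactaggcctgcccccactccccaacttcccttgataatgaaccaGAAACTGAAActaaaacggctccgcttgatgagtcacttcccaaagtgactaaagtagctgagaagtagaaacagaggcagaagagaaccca

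The ISRE core was searched on both strands from 250 bases before to 50 bases after the start. It was present in 4 of the 6 windows, and in 3.92% (1312 of 33469) of all windows in the table. In Rsad2 it lay at -147 to -138, counted from the start, and in Ifit3 at -44 to -35, both on the strand opposite to the gene's own. In Isg20 it lay at -92 to -83 on the gene's own strand, and Ifi44 held 2 matches. The Mx1 and Cmpk2 windows held none, which says only that these letters do not occur in them. The GAS letters TTCNNNGAA occurred in 0 of the 6 windows and in 8.87% of all windows, and the κB consensus, the site of NF-κB, in 0 of 6 and 4.18%. In the RefSeq gene order Rsad2 and Cmpk2 are neighbours with 0 protein-coding genes between them, as are Ifit2 and Ifit3, and 1 protein-coding gene lies between Mx1 and Mx2.

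Values are log2 expression as the authors deposited them. The background level was set at 5.34, the 95th percentile of the mean values of 1344 odorant and vomeronasal receptor genes. The row of Nr0b2, the gene targeted by the siRNA, was under that level on all 12 arrays (4.59 to 5.12), so it gives no check of the knockdown. The median of 11 astrocyte markers was 10.41 to 11.01 on the 12 arrays, and that of 15 microglia markers was 8.42 to 9.47 with 0 of the 15 under background, against 6.49 to 6.58 for all genes. Microglial transcripts were thus measurable in these cultures, and in such bulk RNA fewer cells of a type and less RNA per cell cannot be told apart. The arrays numbered 1 stood apart from the others in all 4 groups. Their deviations from the group means correlated by -0.68 to -0.50 with those of the arrays numbered 2 and 3 in other groups. The deviations within a group cancel, so a negative correlation between numbers is partly built in. Numbers 2 and 3, however, correlated by 0.42 to 0.58 with each other. Results are therefore shown for the full set of 12, with the title number as a block and without the arrays numbered 1. Per the series text 4 of the 12 arrays come from an older series. It does not say which, so whether they are the arrays numbered 1 is not known, and the part of their origin was not tested.

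Before any interferon was added, the effectors were already high on the array numbered 1. In siCon, Rsad2, the radical SAM enzyme viperin that makes a chain-terminating nucleotide, was at 11.42 in number 1 and at 7.996 and 7.39 in numbers 2 and 3. Mx1, a dynamin-like GTPase that traps viral nucleoproteins, was at 11.98, 7.78 and 7.45, and Ifit3, a partner of the RNA-binding IFIT complex, was at 10.18, 5.95 and 4.99. The lone array lay far above the other siCon arrays for each of these genes.

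A limma fit with number 1 apart from numbers 2 and 3 called 8 of the 9 members higher in siCon number 1, where 13.6% of all genes were called higher. The differences ran from 1.35 ± 0.28 (SE) for Ifi44 (adjusted p = 0.0114) to 4.71 ± 0.37 for Ifit3 (adjusted p = 0.00014), whose siCon number 3 was under background. The remaining member, Ifit1, lay on the lower side in this fit, by -0.46, though it was under background on all arrays. The split was chosen because earlier results of these data showed number 1 apart, so the p-values of this fit only describe it. The fit sets 1 array against 2 and assumes that the lone array varies like the others. Cell type markers moved with it. Of the meningeal and vascular markers 6 of 10 were lower in siCon number 1 and 0 higher, with a median difference of -1.40. Of the microglia markers 11 of 15 were higher and 1 lower (median 0.57). Astrocyte markers were lower for 5 of 11 (median -0.33), oligodendrocyte markers for 6 of 12 with 1 higher (median -0.37) and neuron markers for 4 of 14 with 1 higher (median -0.25). Over all genes 2462 were called higher and 1730 lower of 18166, and the part of these markers in the members' levels was not tested. Irf7, which drives type I interferon production, was at 12.12, 8.55 and 8.04 in siCon 1, 2 and 3. Ifnb1, the gene of interferon-β, was at 4.997, 4.90 and 4.72 there, under background on all of them.

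**Figure D1:**
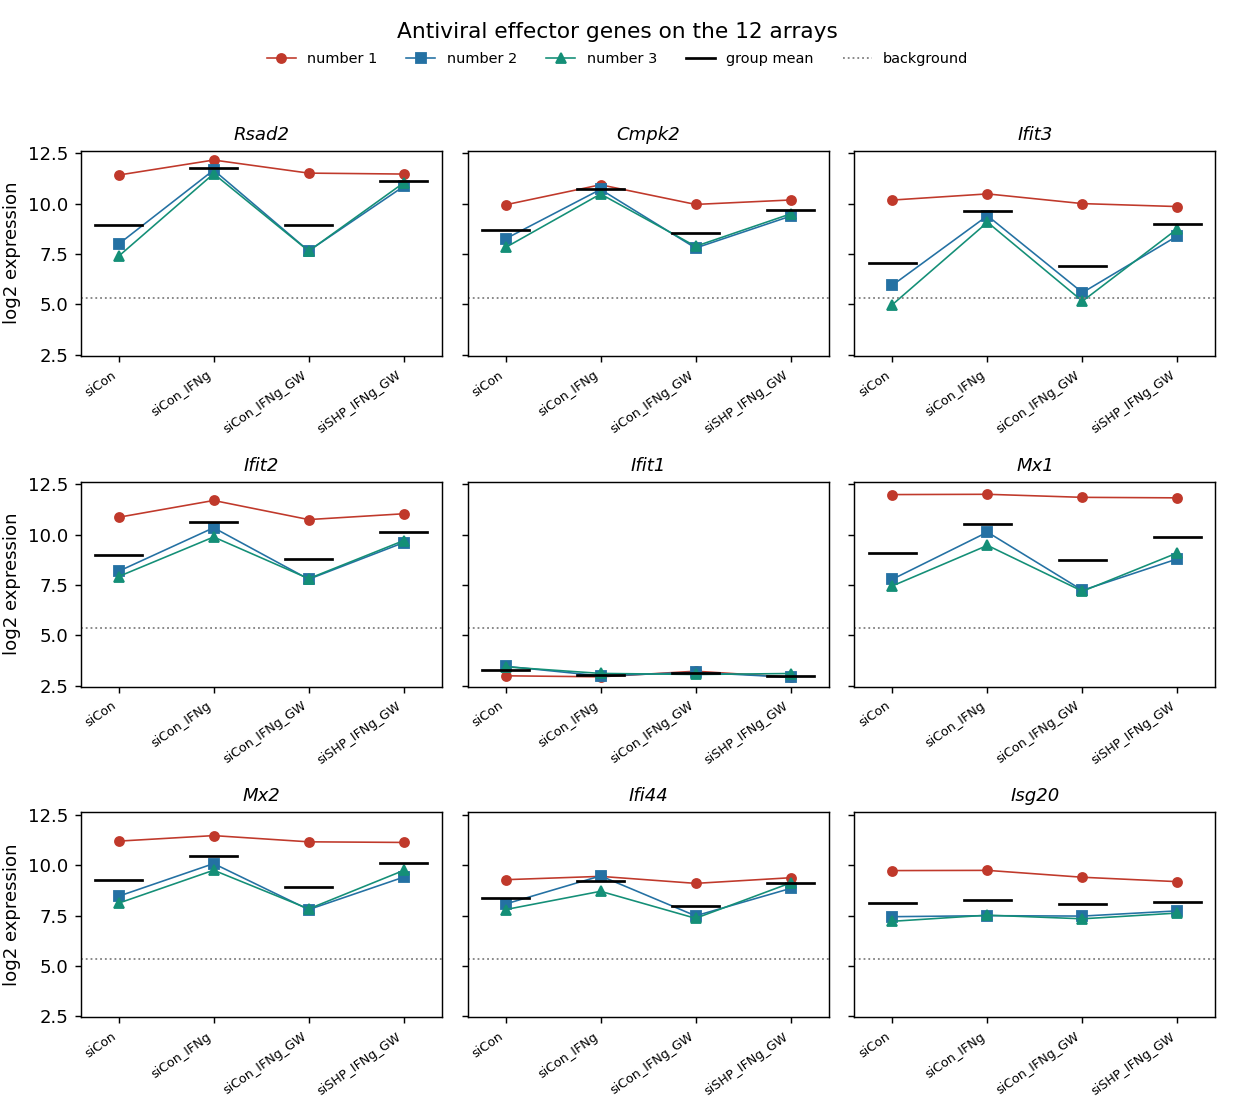
Each panel plots the log2 expression of a member (vertical axis) on the 12 arrays by group (horizontal axis), with lines joining arrays of the same title number, bars at the group means and a dotted line at the background of 5.34. Number 1 is the highest array of its group for the 8 members above background, except Ifi44 in siCon_IFNg (9.45 against 9.47 for number 2), and for those members numbers 2 and 3 are higher in siCon_IFNg and siSHP_IFNg_GW than in the other groups, for Isg20 by little.

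The first comparison, siCon_IFNg against siCon, asks what 3 h of IFN-γ did to the effectors. On the arrays numbered 2 and 3, 7 of the 9 members were called higher, against 3.05% of all genes. These were Rsad2 by 14.8-fold, Cmpk2 by 5.88-fold, Mx1 by 4.51-fold, Ifit2 by 4.17-fold, Mx2 by 3.09-fold, Ifi44 by 2.22-fold and Ifit3. The measured fold of Ifit3, 13.6, is only a bound, since siCon number 3 was under background. On the arrays numbered 1, where siCon was already high, the same genes differed by 0.01 to 0.99 on the log2 scale. Over all 3 pairs of arrays every member above background was higher with IFN-γ, for Mx1 and Isg20 by only 0.01 in number 1. The share of all genes with such a pattern was not computed. With 3 arrays per group and no account of the number, 0 of 9 passed limma's test.

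For the enzymes Rsad2 and Cmpk2 the groups were separate. Rsad2 was at 12.17, 11.67 and 11.49 in siCon_IFNg 1, 2 and 3, against 11.42, 7.996 and 7.39 in siCon. All IFN-γ arrays were above all siCon arrays, by little where siCon number 1 is concerned. Over all arrays the difference was 2.84 ± 1.11 (SE, 3 arrays in each group, adjusted p = 0.783 by limma). It was 3.89 ± 0.18 (adjusted p = 1.89e-05) without the arrays numbered 1. Cmpk2, a mitochondrial nucleotide kinase that makes the substrate of viperin and lies beside Rsad2, was at 10.94, 10.71 and 10.48, against 9.95, 8.26 and 7.83 in siCon. Here too the groups did not overlap, and the pairs numbered 1, 2 and 3 differed by 0.99, 2.45 and 2.66. Cmpk2 was called with the number as a block (2.04 ± 0.33, adjusted p = 0.0217). Without the arrays numbered 1 it was 2.56 ± 0.15 (adjusted p = 6.25e-05), and it missed the threshold over all arrays without a block (SE 0.61, adjusted p = 0.516).

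Among the IFIT genes, Ifit2, whose protein binds AU-rich viral RNA, was at 11.69, 10.34 and 9.88 in siCon_IFNg and 10.86, 8.18 and 7.91 in siCon. Each pair was higher with IFN-γ, but siCon number 1 lay above siCon_IFNg numbers 2 and 3. With the number as a block Ifit2 rose by 1.65 ± 0.31 (adjusted p = 0.0422). Ifit3 was at 10.49, 9.40 and 9.08 in siCon_IFNg, with pair differences of 0.31, 3.45 and 4.09. The value in siCon number 3 was under background, so 1 of the 3 siCon arrays gives only a bound. The measured difference was 3.77 ± 0.30 on numbers 2 and 3 (adjusted p = 0.000291). Ifit1, whose protein binds viral RNA lacking 2′-O methylation, read 2.91 to 3.46 on the 12 arrays, under background on all of them, and no fold is given.

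The Mx GTPases rose on numbers 2 and 3 and were near their siCon level on number 1. Mx1 was at 11.997, 10.12 and 9.46 in siCon_IFNg, and the pair numbered 1 differed by 0.01 while those numbered 2 and 3 differed by 2.34 and 2.01. Mx2 was at 11.48, 10.09 and 9.76, against 11.20, 8.47 and 8.12 in siCon. The Mx groups overlapped because siCon number 1 exceeded siCon_IFNg numbers 2 and 3. Over all arrays the differences were 1.454 ± 1.497 and 1.18 ± 1.012, both with an adjusted p of 1.0. On numbers 2 and 3 they were 2.17 ± 0.21 and 1.63 ± 0.16 (adjusted p = 0.000832 and 0.000952).

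The remaining members differed from each other. Ifi44, a cytoplasmic protein induced by type I interferon, was at 9.45, 9.47 and 8.71 in siCon_IFNg and 9.29, 8.08 and 7.80 in siCon. Among these 3 fits it was called without the arrays numbered 1 (1.15 ± 0.23, adjusted p = 0.0293). Isg20, an exonuclease that degrades single-stranded RNA, was at 9.75, 7.4995 and 7.52 with IFN-γ and at 9.74, 7.45 and 7.22 without it. The 3 pairs of Isg20 differed by 0.01, 0.05 and 0.30, and the fitted difference without the arrays numbered 1 was 0.18 ± 0.10 (adjusted p = 0.426).

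In counts, 0 of 9 members were called higher over all arrays (3 had an unadjusted p under 0.05), where 0.0826% of all genes were. With the number as a fixed block 2 of 9 were called (Cmpk2 and Ifit2), against 0.595% of all genes. As a random block it gave 0 of 9, with an adjusted p of 0.0642 for Cmpk2 and 0.317 for Ifit2. Without the arrays numbered 1, 7 of 9 were called, against 3.05%. The groups did not overlap for 2 of 9 members (Rsad2 and Cmpk2), against 3.59% of all genes. The median difference over the members was 1.45 over all arrays and 2.06 without number 1, against -0.03 and -0.04 over all genes. By pair it was 0.27, 2.16 and 1.96 for numbers 1, 2 and 3.

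The response in number 1 was set against the others in the same limma fit, as the difference between the number 1 effect and that of numbers 2 and 3. It was called lower for 4 of 9 members, against 1.14% of all genes: Ifit3 (-3.46 ± 0.52, adjusted p = 0.0142), Rsad2 (-3.14 ± 0.31, adjusted p = 0.00265), Mx1 (-2.16 ± 0.37) and Cmpk2 (-1.56 ± 0.25). For Ifit2 and Mx2 it was -1.23 ± 0.27 (adjusted p = 0.0664) and -1.35 ± 0.28 (adjusted p = 0.0575). Number 1 has 1 array per group in this fit, and the spread comes from numbers 2 and 3. As the split was chosen with earlier results of these data known, its p-values, here and below, are a description.

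**Figure D2:**
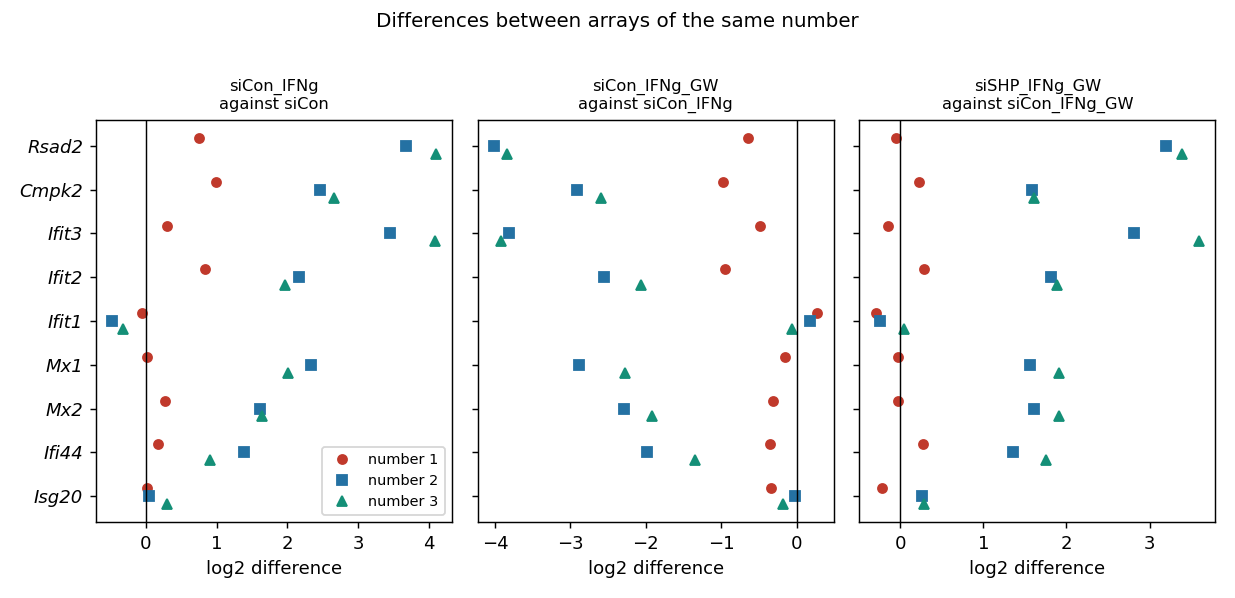
The 3 panels show the log2 difference (horizontal axis) between arrays of the same title number for each member (vertical axis) in the first 3 comparisons, with a marker for each number. Numbers 2 and 3 lie close together for Rsad2, at 3.68 and 4.10 with IFN-γ, and number 1 lies nearer to 0, at 0.75.

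The second comparison, siCon_IFNg_GW against siCon_IFNg, asks whether GW altered the response. On the arrays numbered 2 and 3, 7 of 9 members were called lower with GW, against 4.98% of all genes. These were Rsad2 by 15.2-fold, Cmpk2 by 6.75-fold, Mx1 by 5.99-fold, Ifit2 by 4.97-fold, Mx2 by 4.29-fold, Ifi44 by 3.16-fold, and Ifit3. The measured fold of Ifit3, 14.6, is only a bound, since GW number 3 was under background. With the number as a fixed block and number 1 included, 6 of 9 were called lower, against 2.91% of all genes. With the number as a random block it was 1 of 9, Cmpk2 (limma adjusted p = 0.0172). This comparison shares the siCon_IFNg arrays with the first, so a high value there raises both differences.

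Rsad2 was at 11.52, 7.66 and 7.65 in siCon_IFNg_GW 1, 2 and 3, against 12.17, 11.67 and 11.49 with IFN-γ alone. The pairs numbered 2 and 3 fell by 4.01 and 3.84 and the pair numbered 1 by 0.65. With the number as a block the difference was -2.83 ± 0.69 (adjusted p = 0.04), and without it the SE was 1.11 (adjusted p = 0.341). Cmpk2 was at 9.96, 7.80 and 7.88 with GW, below every siCon_IFNg array (10.48 to 10.94). It was the single member whose groups did not overlap here, against 7.24% of all genes, and its difference with the block was -2.16 ± 0.33 (adjusted p = 0.00627).

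Ifit2 was at 10.74, 7.78 and 7.81 with GW, and Ifit3 at 10.005, 5.59 and 5.16. For both, numbers 2 and 3 lay below every siCon_IFNg array, and GW number 1 lay among the siCon_IFNg values. Ifit2 fell by 1.86 ± 0.31 with the block (adjusted p = 0.00922), while Ifit3 missed the threshold there (-2.74 ± 0.74, adjusted p = 0.0554). Without number 1, Ifit3 fell by 3.87 ± 0.30 (adjusted p = 0.000169), with 1 of the GW arrays under background.

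Mx1 was at 11.85, 7.23 and 7.18 with GW and Mx2 at 11.17, 7.80 and 7.84. Numbers 2 and 3 were again low and number 1 high. With the block Mx1 fell by 1.77 ± 0.45 (adjusted p = 0.0457), and Mx2 fell by 1.504 ± 0.36 (adjusted p = 0.0368). Ifi44 was at 9.10, 7.49 and 7.37, and with the block it fell by 1.22 ± 0.29 (adjusted p = 0.0343). Isg20 was at 9.41, 7.48 and 7.34, and its 3 pairs differed by -0.34, -0.02 and -0.18.

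Over all arrays without a block 0 of 9 members were called lower (3 had an unadjusted p under 0.05), where 0.253% of all genes were. With the fixed block 6 of 9 were called, against 2.91%, and with the random block 1 of 9. Without the arrays numbered 1, 7 of 9 were called, against 4.98%. The median difference was -1.77 over all arrays and -2.31 without number 1, against 0.00 and 0.01 over all genes, and by pair it was -0.35, -2.56 and -2.07. The effect of GW differed between number 1 and the others, by limma, for 6 of 9 members, against 1.31% of all genes called in that direction. These were Ifit3 (3.39 ± 0.52), Rsad2 (3.28 ± 0.31), Mx1 (2.43 ± 0.37), Mx2 (1.79 ± 0.28), Cmpk2 (1.78 ± 0.25) and Ifit2 (1.36 ± 0.27), with adjusted p from 0.00217 to 0.0381. Microglia markers also fell with GW: 9 of 15 were called lower with the block and 10 of 15 without number 1, where 1 was higher, with a median of -0.47 over all arrays (0 called, 8 at an unadjusted p under 0.05). Their part in the members' fall was not tested.

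**Figure D3:**
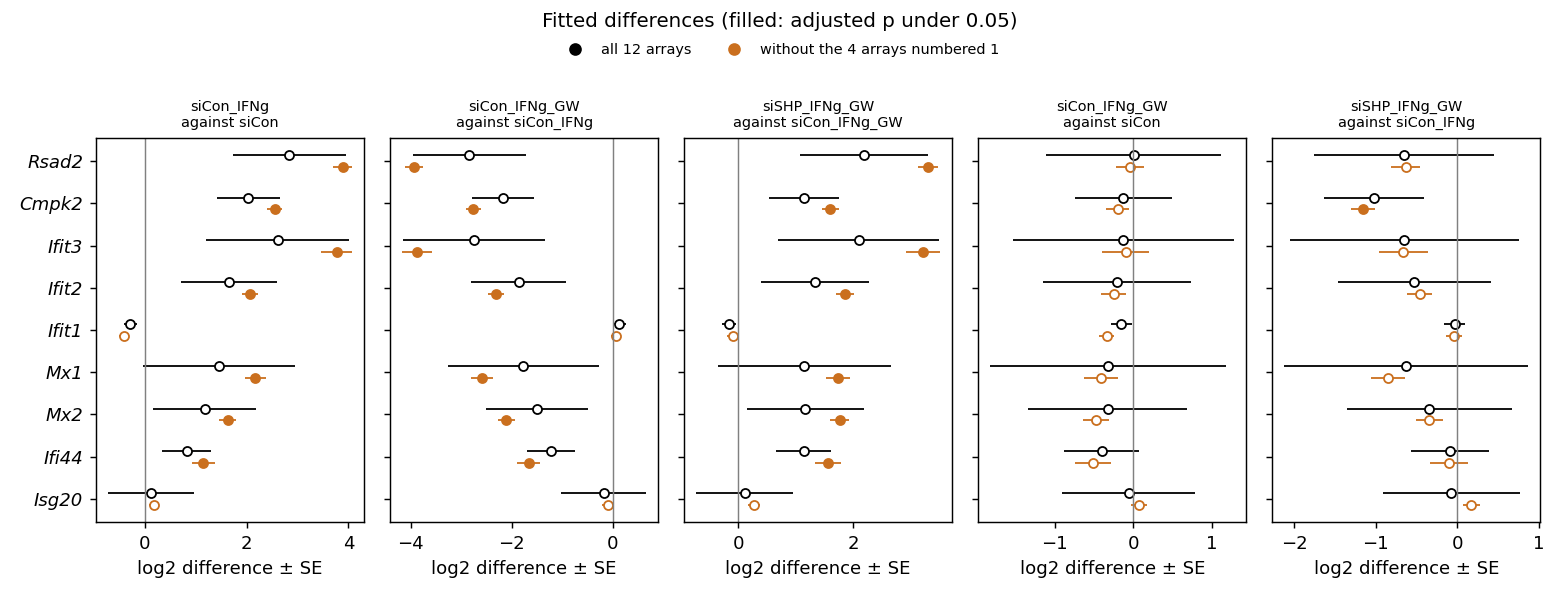
The panels plot the fitted log2 difference ± SE (horizontal axis) of each member (vertical axis). The fits shown are the one over all arrays, with no block, and the one that leaves out the arrays numbered 1. Filled markers have a limma adjusted p under 0.05. No marker of the fit over all arrays without a block is filled, and 7 members are filled without number 1 in each of the first 3 comparisons.

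The level reached with GW was set against siCon directly. On numbers 2 and 3 the effectors with GW lay near the siCon arrays: Rsad2 at 7.66 and 7.65 against 7.996 and 7.39, and Cmpk2 at 7.80 and 7.88 against 8.26 and 7.83. Over all arrays 8 of 9 members were on the lower side, by at most 0.40 on the log2 scale (Ifi44, SE 0.48). Of all 18166 genes 9699 were on that side. The median was -0.15 over the members and -0.02 over all genes. Members called lower numbered 0 of 9 in all 3 fits, with 0, 0 and 2 at an unadjusted p under 0.05. The share of all genes called lower was 0.281% over all arrays, 3.9% with the block and 2.35% without number 1. The nearest to the threshold without number 1 were Ifit1, which is under background, and Mx2 (-0.47 ± 0.16, adjusted p = 0.143). A missed threshold does not show that the levels were alike. Of the 15 microglia markers 1, 13 and 8 were called lower in the same fits, and their part here was not tested.

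The third comparison, siSHP_IFNg_GW against siCon_IFNg_GW, asks whether the effect of GW needed SHP. On the arrays numbered 2 and 3, 7 of 9 members were called higher with SHP siRNA, against 1.35% of all genes. These were Rsad2 by 9.82-fold, Ifit2 by 3.62-fold, Mx2 by 3.39-fold, Mx1 by 3.33-fold, Cmpk2 by 3.02-fold, Ifi44 by 2.95-fold, and Ifit3. The measured fold of Ifit3, 9.23, is only a bound, since control number 3 was under background. On the arrays numbered 1 the 8 members above background differed by -0.22 to 0.29 on the log2 scale. No call was made when number 1 was included, with or without the block. Since Nr0b2 could not be read, these values describe the libraries labelled SHP siRNA. This comparison shares the siCon_IFNg_GW arrays with the second.

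Rsad2 was at 11.47, 10.86 and 11.04 in siSHP_IFNg_GW 1, 2 and 3, against 11.52, 7.66 and 7.65 with control siRNA. Numbers 2 and 3 rose by 3.20 and 3.39, and number 1 differed by -0.05. Over all arrays the difference was 2.18 ± 1.11 (limma adjusted p = 1.0), and without number 1 it was 3.30 ± 0.18 (adjusted p = 7.36e-05). Cmpk2 was at 10.18, 9.38 and 9.49. All of these lay below every siCon_IFNg array, though the share of all genes separated in that way was not computed. Control number 1 (9.96) lay above siSHP numbers 2 and 3.

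Ifit2 was at 11.03, 9.60 and 9.70 with SHP siRNA, and its pairs differed by 0.29, 1.82 and 1.89. Ifit3 was at 9.86, 8.40 and 8.76, which puts numbers 2 and 3 well above the control values of 5.59 and 5.16 but below control number 1. Without number 1 the differences were 1.85 ± 0.15 for Ifit2 (adjusted p = 0.000727) and 3.21 ± 0.30 for Ifit3 (adjusted p = 0.00135), the latter with 1 of the control arrays under background.

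Mx1 was at 11.82, 8.79 and 9.09 and Mx2 at 11.14, 9.41 and 9.75. In number 1 both were within 0.03 of the control array, whereas in numbers 2 and 3 the differences ran from 1.56 to 1.91. Ifi44 was at 9.38, 8.85 and 9.13, and all 3 pairs were higher with SHP siRNA, by 0.28, 1.36 and 1.76. Isg20, at 9.19, 7.74 and 7.63, differed by -0.22, 0.26 and 0.29.

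Over all arrays 0 of 9 members were called higher (1 had an unadjusted p under 0.05), where 0.0% of all genes were called. With the block the count was again 0 of 9 (7 at an unadjusted p under 0.05), against 0.0% of all genes. Without number 1 it was 7 of 9, against 1.35%. The groups did not overlap for 0 of 9, against 2.24% of all genes. The median was 1.15 over all arrays and 1.73 without number 1, against -0.02 and -0.03 over all genes, and by pair it was -0.03, 1.58 and 1.89. The effect in number 1 was smaller by limma's test for Ifit3 (-3.35 ± 0.52, adjusted p = 0.0387), Rsad2 (-3.34 ± 0.31, adjusted p = 0.00501) and Mx2 (-1.79 ± 0.28, adjusted p = 0.04). These are 3 of 9 members, against 0.606% of all genes in that direction. Of the 15 microglia markers 0 were called in any of the 3 fits of this comparison, with 0, 2 and 2 at an unadjusted p under 0.05 and a median of 0.10 over all arrays.

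The SHP siRNA arrays were also set against IFN-γ alone, to see how far the levels lay from those without GW. Over all arrays 9 of 9 members were on the lower side, with a median of -0.53 against -0.02 over all genes. The count called lower was 0 of 9 (0 at an unadjusted p under 0.05), where 0.0606% of all genes were. With the block the count was 0 of 9 (1 at an unadjusted p under 0.05), against 1.13% of all genes. Without number 1 it was 1 of 9, Cmpk2, against 2.21% of all genes. Cmpk2 with SHP siRNA and GW was 2.23-fold lower than with IFN-γ alone (-1.16 ± 0.15, adjusted p = 0.00437). Mx1 and Rsad2 followed at -0.85 ± 0.21 (adjusted p = 0.0587) and -0.63 ± 0.18 (adjusted p = 0.0848). Microglia markers called lower numbered 0, 3 and 5 of 15 in these fits, and their part was not tested. Cmpk2 lay between the levels of the other groups on numbers 2 and 3, at 9.38 and 9.49, with 7.80 and 7.88 under GW with control siRNA and 10.71 and 10.48 under IFN-γ alone.

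The values of the members above background moved together across the arrays, Isg20 less closely than the others, above all within title numbers. Over the 12 arrays the 21 pairs of the 7 members above background other than Isg20 had Pearson correlations of 0.85 to 0.99, and 0.90 to 1.00 once each title number's mean was removed. The 7 pairs with Isg20 ran from 0.60 to 0.91, and from 0.41 to 0.55 within numbers. These points share groups and arrays, so the correlations are a description. The 5 genes outside the members most like their mean over the 12 arrays were Rig1 (0.99), the gene of the RNA sensor RIG-I, Dhx58 (0.99), its regulator LGP2, Isg15 (0.99), a ubiquitin-like modifier, Herc6 (0.99), a ligase of the family that attaches ISG15, and Gbp1 (0.99), a guanylate-binding GTPase. Within numbers their correlations were 0.97 to 0.99.

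The genes upstream of the effectors were read from a list of interferon receptor, kinase and ISGF3 route genes, of which 11 of 13 had a row. For the counts of this and the following lists, the shares of all genes called without number 1 were 3.05% higher with IFN-γ, 4.98% lower with GW and 1.35% higher with SHP siRNA. Of the 11, 1 was called higher with IFN-γ over all arrays, namely Irf1, 2 with the block (Irf1 and Jak2) and 6 without number 1. Irf1, the transcription factor made early after IFN-γ, was at 9.30, 8.70 and 8.604 in siCon and 11.90, 11.70 and 11.73 in siCon_IFNg, so it rose in number 1 as well. It rose by 2.91 ± 0.23 (adjusted p = 0.000706). Irf1 with GW was at 11.73, 11.07 and 10.87, which is above siCon by 2.35 ± 0.23 (adjusted p = 0.00168). No member was called in that comparison.

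Genes of ISGF3 subunits and of Irf7 were high on number 1 in every group. Stat2 was at 10.72, 9.25 and 9.14 in siCon, 10.75, 10.61 and 10.35 with IFN-γ, 10.61, 9.03 and 9.12 with GW and 10.62, 10.51 and 10.55 with SHP siRNA. Irf9 without number 1 rose by 1.14 ± 0.08 with IFN-γ (adjusted p = 0.000209), fell by 1.29 ± 0.08 with GW (adjusted p = 7.48e-05) and was higher by 1.55 ± 0.08 with SHP siRNA (adjusted p = 7.38e-05). Irf7 without number 1 differed by 1.92 ± 0.16, -2.33 ± 0.16 and 2.42 ± 0.16 in the same comparisons (adjusted p = 0.000357, 0.000103 and 0.000225). Irf8, a myeloid interferon regulatory factor, was at 6.87, 7.13 and 6.79 in siCon and at 7.95, 10.43 and 10.39 with IFN-γ. In siCon its array numbered 1 was not called different from the others (adjusted p = 0.69). Of the receptor and kinase genes, Ifnar1 fell by 0.34 ± 0.09 with GW under the block (adjusted p = 0.0457), Jak2 by 0.68 ± 0.11 (adjusted p = 0.00666), and Tyk2 was at 6.40 to 6.82 on all arrays. With GW 2 of the 11 were called lower with the block, and without number 1 there were 6 lower and 1 higher; with SHP siRNA 6 of 11 were higher without number 1 and 0 in the other fits, with 4 at an unadjusted p under 0.05 over all arrays and 6 with the block.

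The type I and III interferon ligand genes, 7 of 9 with a row, had 0 calls in each of these 3 comparisons over all arrays, with the block or without number 1; over all arrays 0, 1 and 0 had an unadjusted p under 0.05. Ifna1, Ifna5 and Ifnk were under background on all arrays (2.96 to 4.62), and Ifna2, Ifna4 and Ifnl3 stayed between 5.49 and 6.90. Ifnb1 was the exception among them: it was at 8.35, 4.74 and 4.76 in siCon_IFNg, 7.51, 5.34 and 4.87 with GW and 7.54, 5.20 and 5.51 with SHP siRNA. The arrays numbered 1 were thus the high ones in each treated group, against 4.997 in siCon number 1. On numbers 2 and 3 it was under background in siCon and siCon_IFNg, so no size of a difference is given.

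Other antiviral interferon-stimulated genes had a row for 37 of 49. Of the 37, 28 were called higher with IFN-γ without number 1 (3.05% of all genes), 33 lower with GW (4.98%) and 25 higher with SHP siRNA (1.35%); over all arrays the counts were 0, 1 and 0, with 12, 15 and 8 at an unadjusted p under 0.05, and with the block 3, 21 and 0. The 1 was Zc3hav1, the zinc-finger antiviral protein, which fell by 1.38 ± 0.21 with GW (adjusted p = 0.0157). Dtx3l and Parp9, which form a ubiquitin ligase complex, and Parp14 and Samhd1, an enzyme that depletes nucleotides, were all called without number 1 in the 3 comparisons. Dtx3l, for example, differed by 2.24 ± 0.11, -2.40 ± 0.11 and 1.90 ± 0.11.

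Reference genes of IFN-γ action, 11 of 12 with a row, had median differences of 2.66, -2.58 and 2.63 without number 1. All 11 were called higher with IFN-γ and lower with GW without number 1, and 10 were higher with SHP siRNA; with the block the counts were 4, 8 and 0, and over all arrays 0, 2 and 0 (9, 10 and 9 at an unadjusted p under 0.05). Cxcl9, a T-cell chemokine, was at 7.04, 5.47 and 5.37 in siCon and at 9.61, 12.19 and 11.64 with IFN-γ. It fell with GW by 5.47 ± 0.87 over all arrays (adjusted p = 0.0191), with 2 of the 3 GW arrays under background. Socs1, a feedback inhibitor of JAK kinases, fell by 3.52 ± 0.66 (adjusted p = 0.0377). Ciita, the regulator of MHC class II genes, was under background on all arrays of siCon, siCon_IFNg_GW and siSHP_IFNg_GW, so no size is given for it. The checkpoint ligand Cd274, the peptide transporter Tap1 and the GTPase Igtp were each called in all 3 comparisons without number 1, as for Igtp at 3.37 ± 0.13, -3.60 ± 0.13 and 3.24 ± 0.13.

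Negative regulators of interferon signalling, 8 of 8 with a row, gave 0, 1 and 0 calls over all arrays (2 in each comparison at an unadjusted p under 0.05). With IFN-γ 2 were higher with the block (Cish and Socs1) and 4 without number 1. With GW 2 were lower with the block and 4 without number 1, and with SHP siRNA 2 were higher without number 1, Socs1 and Usp18. Usp18, the protease that removes ISG15 and dampens type I interferon receptors, was at 10.78, 8.16 and 7.87 in siCon, and its array numbered 1 was the highest of the group. Cish, a STAT5 target, was at 6.27, 5.82 and 6.03 in siCon and 7.54, 7.36 and 7.60 with IFN-γ, and so differed by a similar amount on each number. Socs3, another feedback inhibitor, rose with IFN-γ by 1.84 ± 0.21 without number 1 (adjusted p = 0.00188). Ptpn6, which also marks leukocytes, fell by 0.65 ± 0.11 with GW without number 1 (adjusted p = 0.00678), and Ptpn2 was not called in any fit of the 3 comparisons.

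The astrocyte list had 0, 0 and 0 calls over all arrays in the 3 comparisons (0, 1 and 0 at an unadjusted p under 0.05). Without number 1 it had 0, 2 and 0 of 11 called. The corresponding counts without number 1 were 0, 1 and 0 of 12 for oligodendrocytes, 1, 3 and 2 of 14 for neurons and 1, 2 and 0 of 10 for meningeal and vascular cells. Over all 18166 genes 856, 2081 and 267 were called in either direction there. The median level of the meningeal and vascular markers was 8.28 to 8.83 on the arrays numbered 1 and 9.64 to 10.05 on the others. It moved with the number as the effectors did, in the opposite direction, and its part was not tested.

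**Figure D4:**
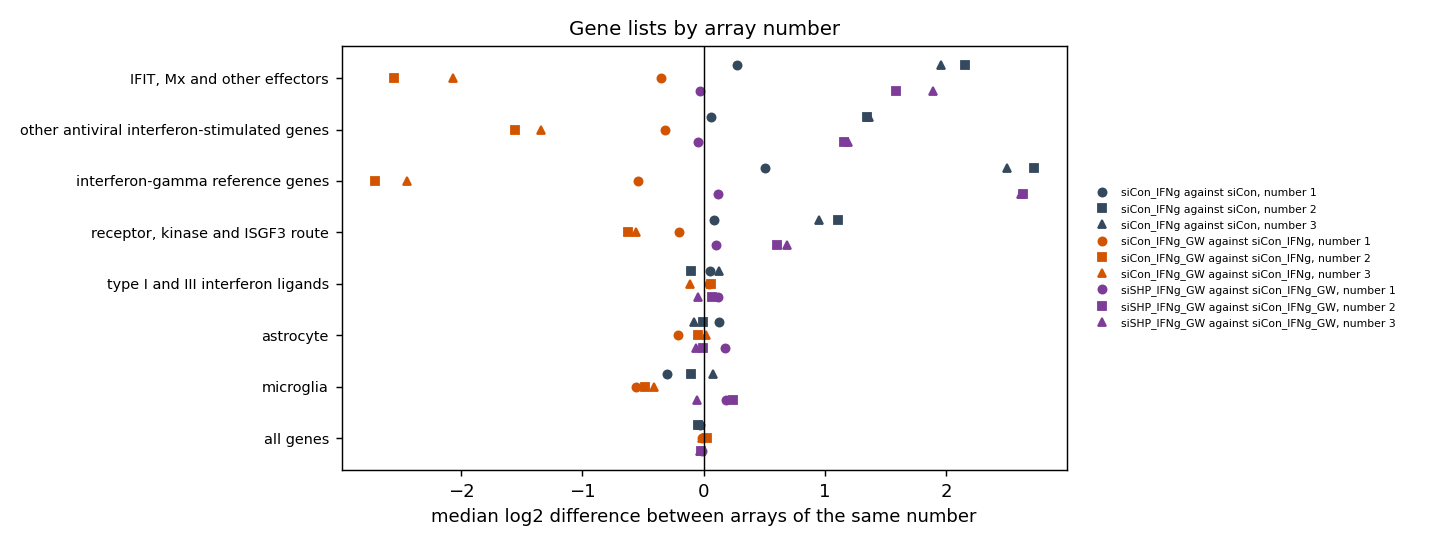
For each gene list (vertical axis) the markers show the median log2 difference (horizontal axis) between arrays of the same title number, by comparison (colour) and number (marker shape). For the members the medians of numbers 2 and 3 lie at 2.16 and 1.96 with IFN-γ, -2.56 and -2.07 with GW and 1.58 and 1.89 with SHP siRNA, and the microglia markers lie at -0.56, -0.48 and -0.41 with GW.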

How the data were processed

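The members and gene lists were chosen with earlier results of these data known. RNA was extracted with Trizol and hybridised as biotin-labelled sense cDNA to whole-transcript arrays, per the labels' protocols. The deposited table holds log2 expression values summarised by the authors, 1 per row and array; the log base was read from their range (1.01 to 13.43, 0 missing), and the background correction and normalization are not given in the sources used here. Of 36685 rows, 18511 were paired with 1 gene, 575 with several and 17599 with none; 18394 were matched by Entrez ID to RefSeq (GRCr8), which changed 0 symbols. For 291 genes with several rows the row with the highest mean was used. The members' rows were 17625123 (Ifit1), 17625115 (Ifit2), 17625119 (Ifit3), 17668239 (Mx1), 17664996 (Mx2), 17821293 (Rsad2), 17815145 (Cmpk2), 17617588 (Isg20) and 17752004 (Ifi44). Array medians over all 18166 genes tested were 6.49 to 6.58, so no normalization was added. The number of arrays limits the precision. Columns of other samples numbered 0.

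Groups and numbers came from the titles. Per the series text 4 of the arrays come from an older series; it does not name them. The limma fits (3.58.1, R 4.3.3) used 4 group means over all 12 arrays, with Benjamini-Hochberg adjustment over 18166 genes and a threshold of 0.05. A further fit gave number 1 means of its own, a split chosen with earlier results of these data known. The fits were tested on simulated data. Alternatives were the number as a fixed or random block, omission of arrays, 2 scalings, a filter on low values (8 of 9 members passed), every row tested, means over rows, another variance model and fits of the 2 groups alone. Arrays of a group correlated by 0.9684 to 0.9915 and no 2 were identical.

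Pairing was checked from deviations from group means. Arrays of the same number correlated by 0.63 to 0.77 (number 1), 0.48 to 0.58 (number 2) and 0.43 to 0.55 (number 3), all over 0.1, and by that rule the number was used as a block. Numbers 2 and 3 correlated as well with each other (0.42 to 0.58).

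Named genes were all members with a row, up to 4 genes with the smallest p from each pathway list in each of 3 comparisons, Stat2, Irf9, Irf7, Irf1 and Ifnb1, and the 5 genes most correlated with the members' mean; 1 other gene that it names is left unreported. Figures used matplotlib 3.10.9 in Python 3.11.15.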

Additional observations from a re-analysis of the deposited data

Results flagged for a closer look

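Each result here is a member whose treatment effect differed, in the limma fit, between the arrays numbered 1 and those numbered 2 and 3. This split was chosen with earlier results of these data known. The value is the number 1 difference minus that of the others on the log2 scale. With IFN-γ these were -3.46 for Ifit3, -2.16 for Mx1, -3.14 for Rsad2 and -1.56 for Cmpk2. With GW under IFN-γ they were 1.36 for Ifit2, 3.39 for Ifit3, 2.43 for Mx1, 1.79 for Mx2, 3.28 for Rsad2 and 1.78 for Cmpk2. With SHP siRNA under IFN-γ and GW they were -3.35 for Ifit3, -1.79 for Mx2 and -3.34 for Rsad2. In each case the effect was nearer to 0 in number 1. The Ifit3 values rest in part on arrays under background. The comparisons share arrays and are not independent of each other.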

How the results depend on the processing

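The count of members called was recomputed under 22 alternatives. With the replicate block it was 2 for IFN-γ (0 without it) and 6 for GW (0), and it changed the call of no other member in the 5 comparisons. With the number as a random block GW gave 1. Without the arrays numbered 1 it was 7 for IFN-γ, 7 for GW, 7 for SHP siRNA and 1 for SHP siRNA against IFN-γ alone. Leaving out 1 array at a time gave 0 to 1 for GW, the 1 being Cmpk2 without siCon_IFNg_GW replicate 1. For the difference between number 1 and the others, testing every row gave 1 for IFN-γ (main 4), 1 for GW (main 6) and 0 for SHP siRNA (main 3), with more rows to adjust over; the filter on low values gave 6 and the other variance model 5 for SHP siRNA, and the cause was not tested. Of 1197 values of single members, 1140 kept their side of the threshold, 42 passed it newly, 15 no longer passed it and 0 reversed a called direction; 47 turned sign, 19 of these in Ifit1 and Isg20. Centring the arrays shifted the median of all genes by 0.16 in siCon number 1 against the others and by -0.10 in the GW difference between numbers, and by less than 0.02 elsewhere.

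Counts over all genes also varied with the fit. For IFN-γ they were 22 over all arrays, 2 to 66 with 1 array left out and 2 to 856 otherwise. For GW they were 161, 27 to 412 and 4 to 2081; for SHP siRNA 0, 0 to 1 and 0 to 267; for GW against siCon 157, 23 to 250 and 32 to 1242; and for SHP siRNA against IFN-γ alone 55, 0 to 155 and 6 to 1129. The other choices between numbers gave 125 to 730 (main 441), 182 to 1125 (main 549) and 27 to 495 (main 131). Signal limits Ifit1 on every array and Ifit3 on the lowest arrays.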
